A study of Gnathonemus petersii with 18 samples.

Results

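Gene activity in the trigeminal ganglion was compared with that in the cerebellum of Gnathonemus petersii, the elephantnose fish, which senses its surroundings with weak electric fields and a mobile chin. The ganglion is a cluster of sensory neurons outside the brain that sends touch, temperature and pain signals from the head and jaw into the hindbrain. All 12 libraries labelled as one of these tissues were used, of 18 in the series, with 6 libraries per tissue from 6 individual fish; the brain libraries are labelled as cerebellum. The fish carry no stated treatment or genetic change, and the sources used here give neither their age nor their sex. Libraries with the same replicate number were treated as a pair, although the labels do not say that a number stands for 1 fish. By its title the series asks when acute touch first appeared in vertebrate evolution, and the cerebellum serves here as a central tissue to set beside the ganglion.

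A sensory ganglion holds the cell bodies of neurons that have no dendrites of the usual central kind: each sends a branch of its axon to the skin and the other into the brain. The cell bodies are wrapped by satellite glia, and the axons by Schwann cells, which make peripheral myelin, and a connective tissue sheath with blood vessels and immune cells encloses the whole. The cerebellum is a central circuit in which very many small excitatory granule cells feed inhibitory Purkinje cells and interneurons, among astroglia and oligodendrocytes. In mormyrid fishes, the family of the elephantnose fish, the cerebellum is greatly enlarged.

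Total counts ran from 10413024 to 14183733 per ganglion library and from 10953416 to 17587837 per cerebellum library, and 21768 to 23955 genes had a count in ganglion libraries, against 22727 to 23422 in cerebellum libraries. Ganglion replicate 5 stood apart. Its mean Spearman correlation across genes with the remaining libraries of its tissue was 0.861, where theirs were 0.917 to 0.934, and its scaling factor was 0.61. Ganglion replicate 2 had the next lowest factor, 0.813. Counts of called genes are therefore also given without replicates 2 and 5 of both tissues wherever that moved them by more than 1.5 times.

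Of 28031 genes in the table, 19453 had enough counts to be tested. In the ganglion 5364 genes were higher than in the cerebellum, which is 27.6% of those tested, and 4606 were lower, which is 23.7%. A gene was called where the Benjamini-Hochberg adjusted p of the edgeR quasi-likelihood test was under 0.05 and the change was at least 2-fold. Of the calls, 2379 higher and 2515 lower genes changed by less than 4-fold, while 103 higher and 49 lower genes changed by more than 256-fold. All 6 ganglion libraries lay above all 6 cerebellum libraries for 4298 of the higher genes, and all lay below for 3905 of the lower genes. Over all tested genes, called or not, the tissues were separated in this way for 25% upward and 24.4% downward. The direction was the same in all 6 pairs for 5010 higher and 4390 lower genes.

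**Figure D1:**
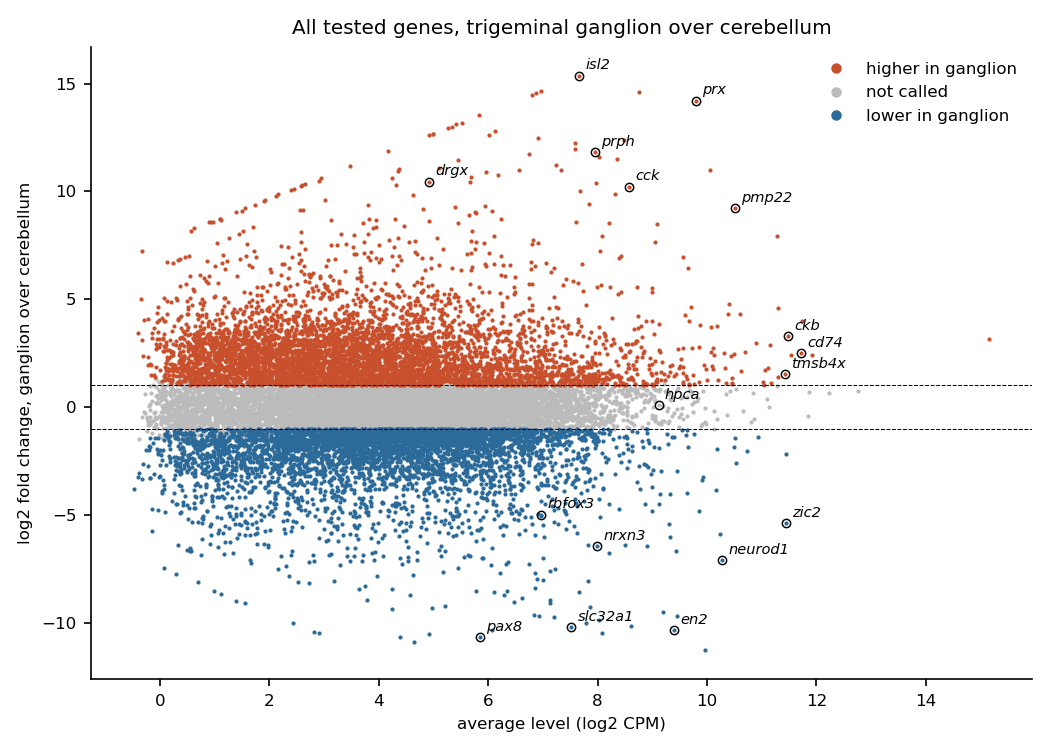
Each point is 1 of 19453 tested genes, with its average level over the 12 libraries on the horizontal axis (log2 CPM) and its log2 fold change, ganglion over cerebellum, on the vertical axis. Points in red are the 5364 genes called higher and points in blue the 4606 called lower; the dashed lines mark a 2-fold change, and the labelled genes are described in the text.

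The balance between higher and lower calls depends on the scaling. With TMM scaling the median log2 fold change over all tested genes was -0.03, and 53.8% of calls were higher in the ganglion. With library totals alone the median was -0.33 and 43.3% of calls were higher (22.7% of tested genes called higher and 29.7% lower). On log2(TPM + 1) the median was -0.56 and 30.7% of calls were higher (15.7% and 35.6% of tested genes). Changes below are relative to the TMM scale, and lists of genes whose median turns under another scale are named with that value. No gene called here had the opposite call under any alternative run, but calls were lost. Of 9970 calls, 9010 were kept with library totals and 7395 on log2(TPM + 1). A test against a 2-fold change (glmTreat) kept 7109. With 1 replicate omitted, 26.8% to 27.7% of tested genes were higher and 22.3% to 23.7% lower, and without replicates 2 and 5 27.8% and 22.1%. Without the replicate pairing the shares were 28.7% and 22.3%, with low counts kept 24.2% and 19.8%.

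Levels are given below as CPM, counts relative to the scaled library size, and 3 values in a row are the lowest, the median and the highest of the 6 libraries of a tissue. A log2 fold change, ganglion over cerebellum, is followed by its standard error. Of the 161 genes named from the rule, 147 were called, with edgeR adjusted p-values from 1.26e-07 to 0.0445. The libraries of the tissues did not overlap for 142 of these 147, and the exceptions are named. The rule picks mostly called genes, some of them for lack of overlap, so these counts follow from the choice. Over all tested genes 51.3% were called, and the tissues did not overlap for 80.1% of the higher and 84.8% of the lower calls. Whole-tissue RNA was sequenced, so fewer cells of a type and less RNA per cell cannot be told apart. Members of a list are the genes that the annotation names by symbol, and a list that passes the filter in part is counted over its tested members. Of all tested symbol genes 21.3% were higher and 21.6% lower, and these are the shares to set beside a list.

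The labelled tissues carried their markers. In the ganglion the sensory neuron factors isl2 and isl1 reached 332, 418 and 488 CPM (isl2) and 187, 244 and 338 CPM (isl1), and neither had a count in any cerebellum library, which allows up to 0.0329 CPM over the 6 libraries. The filament gene prph, typical of peripheral neurons, stood at 248, 389 and 855 CPM in the ganglion and 0, 0.144 and 0.212 CPM in the cerebellum. Advillin (avil), an actin regulator of sensory neurons, stood at 64.7, 136 and 174 CPM in the ganglion and 3.34, 6.93 and 8.32 CPM in the cerebellum. For the cerebellum, the granule cell genes fat2 and pax6 were lower in the ganglion. The level of fat2 was 0.0944, 0.200 and 0.929 CPM in the ganglion and 154, 165 and 230.2 CPM in the cerebellum, and that of pax6 was 0.237, 0.531 and 2.03 CPM in the ganglion and 80.4, 94.5 and 109 CPM in the cerebellum. The GABA receptor subunit gabra6 of granule cells stood at 5.18, 6.91 and 9.16 CPM in the ganglion and 242, 296 and 312 CPM in the cerebellum. The marker cbln1, which encodes a synapse organiser released by granule cells, was low throughout, with 0.0664, 0.281 and 1.32 CPM in the ganglion and 3.25, 4.76 and 6.10 CPM in the cerebellum. Ganglion replicate 3 held 1.53 CPM of slc32a1 and 1.73 CPM of gad1, both genes of inhibitory neurons, where the other ganglion libraries had at most 0.243 and 0.189 CPM. In the cerebellum slc32a1 stood at 275, 376 and 424 CPM and gad1 at 186, 251 and 293 CPM.

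Of 12 tested sensory neuron identity genes 11 rose and none fell, with a median log2 fold change of 3.68. The homeobox gene drgx, needed for the connections of pain-sensing neurons in mice, had 46.5, 51.4 and 88.9 CPM in the ganglion, against 0, 0 and 0.139 CPM in the cerebellum. Its 6 cerebellum libraries held 3 counts in all, so the ratio of summed, scaled counts was 1849 (95% exact binomial interval 632 to 8970).

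Among 9 tested neuropeptide precursors, 5 were higher and 4 were lower, so the direction split by gene. The largest change was that of cck, the precursor of cholecystokinin, a gut and brain peptide that is also found in sensory ganglia. Its level was 469, 810.1 and 962 CPM in ganglion libraries and 0.212, 0.496 and 2.36 CPM in cerebellum libraries, a log2 fold change of 10.23 ± 0.449 (edgeR adjusted p = 2.36e-07). Corrected for length it averaged 1374 ± 276 TPM in the ganglion and 2.15 ± 2.36 TPM in the cerebellum (SD, n = 6 each). The gene adcyap1, precursor of the peptide PACAP, was higher as well, at 79.7, 117 and 153 CPM in the ganglion and 0.678, 3.11 and 5.17 CPM in the cerebellum. In contrast, tac1, precursor of substance P, a peptide of mammalian pain neurons, had 0.157, 0.721 and 1.54 CPM in the ganglion, against 20.2, 21.8 and 24.5 CPM in the cerebellum (log2 fold change -5.04 ± 0.384). The enkephalin precursor penk was lower in the ganglion too, with 0.664, 1.27 and 2.01 CPM there and 16.5, 25.2 and 30.1 CPM in the cerebellum.

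Channels for touch, pain and acid were uneven: 11 of 25 tested rose, 1 fell and the call was missed by 13, with a median log2 fold change of 0.55 that turned to -0.14 on log2(TPM + 1). The cation channel trpa1, opened by irritants, had 19.3, 40.3 and 59.9 CPM in the ganglion and a single count over all cerebellum libraries, a ratio of summed, scaled counts of 4035 (95% exact binomial interval 724 to 159400). Another cation channel of the same superfamily, trpm2, which responds to oxidative stress and warmth in mammals, reached 76, 112 and 141 CPM in the ganglion, against 0.911, 2.52 and 3.46 CPM in the cerebellum (5.59 ± 0.355). The touch channel piezo2 stood at 24.1, 41.8 and 73.5 CPM in the ganglion and 3.46, 4.25 and 6.36 CPM in the cerebellum. The member that was lower, tmem120a, had 0.157, 5.81 and 7.17 CPM in the ganglion and 28.7, 37.9 and 56 CPM in the cerebellum, and its lowest ganglion value came from replicate 5; 2 members were lower without replicate 5. For tmem150c the tissues overlapped almost completely, with 50.6, 58.5 and 93.3 CPM in the ganglion and 50.3, 60.6 and 67.8 CPM in the cerebellum, and it was not called.

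Genes that work with G proteins had shares near those of all tested symbol genes, of which 21.3% were higher and 21.6% lower. Of the G protein, RGS protein and adenylyl cyclase list, 8 of 37 tested members were higher and 10 lower (21.6% and 27%). The G protein gamma subunit gng13, known from taste and smell receptor cells and from retina, had 373, 737 and 1525 CPM in the ganglion, against 9.65, 17.4 and 20.9 CPM in the cerebellum (5.57 ± 0.357). The gene rgs11, which encodes a brake on G protein signalling, had 82.9, 108 and 134 CPM in the ganglion and 0, 0.139 and 0.485 CPM in the cerebellum (9.06 ± 0.576). In the other direction pde4b, an enzyme that degrades cyclic AMP, stood at 42.7, 59.1 and 79.3 CPM in the ganglion and 615, 828 and 971 CPM in the cerebellum (-3.79 ± 0.211). The alpha subunit gnao1, the most abundant uncalled member, had 44.5, 148 and 240.2 CPM in the ganglion and 204, 242 and 278 CPM in the cerebellum.

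Potassium channel genes moved in both directions, and are set beside the 21.3% higher and 21.6% lower of tested symbol genes. Among voltage-gated potassium and HCN channel genes, 8 rose and 7 fell of 25 tested (32% and 28%). In a list of this size the excess over those shares is a few genes, and it was not tested. The median of this list, -0.4, became 0.13 without replicates 2 and 5. The fast Kv3-type channel gene kcnc4 had 52.2, 65.6 and 78 CPM in the ganglion, against 0.911, 1.78 and 2.54 CPM in the cerebellum (5.22 ± 0.245). The gene kcnh7, of the ether-a-go-go-related channels, had 19.9, 44.5 and 90.3 CPM in the ganglion, against 3.28, 4.09 and 4.85 CPM in the cerebellum. The Kv4 accessory subunit kcnip2 was very low in the ganglion, at 0, 0.248 and 0.471 CPM, with 27.7, 30.0 and 30.8 CPM in the cerebellum (-6.74 ± 0.386). Inward-rectifier and K2P channel genes gave 3 higher and 3 lower of 14 tested (21.4% each), near those shares, and the lower count rose to 5 without replicate 5. The glial potassium channel kcnj10 was not called, at 57.3, 229 and 289 CPM in the ganglion and 113, 125 and 171 CPM in the cerebellum.

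Sodium and calcium channel subunits were mostly lower in the ganglion: 14 of 23 tested were lower and 2 were higher, a count of higher genes that fell to 1 without replicate 5 or without replicate 6. The P/Q-type calcium channel gene cacna1a, which drives transmitter release and is very abundant in Purkinje cells of mammals, had 15.1, 19.1 and 24.3 CPM in the ganglion, against 195, 234 and 278 CPM in the cerebellum (-3.60 ± 0.195). The auxiliary subunits cacnb2 and cacng3 were lower in the ganglion. The level of cacnb2 was 0.473, 1.56 and 1.78 CPM in the ganglion and 36.9, 56.3 and 64.7 CPM in the cerebellum, and that of cacng3 was 0, 0 and 0.266 CPM in the ganglion and 10.8, 18 and 22.1 CPM in the cerebellum.

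Among ion pump genes, the plasma membrane calcium pump atp2b2 had 29.8, 52.8 and 128 CPM in the ganglion and 823, 1039 and 1285 CPM in the cerebellum, a log2 fold change of -4.05 ± 0.365 (edgeR adjusted p = 1.03e-05). Over the list 3 of 20 tested members were higher, 5 lower and 12 not called. The called shares were 15% higher and 25% lower, near the 21.3% and 21.6% of all tested symbol genes. The list median of 0.15 turned to -0.15 with library totals and to -0.50 on log2(TPM + 1). Calcium-binding proteins also divided, 9 higher and 5 lower of 18: the calmodulin-like gene calml4 had 16.8, 35.7 and 94.5 CPM in the ganglion and 0.0517, 0.197 and 0.325 CPM in the cerebellum. The neuronal calcium sensor vsnl1 had 1.52, 5.18 and 20.4 CPM in the ganglion and 96.3, 118 and 168 CPM in the cerebellum.

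Axon structure genes differed by list. All 5 tested neuronal intermediate filament genes were higher, with a median of 4.3. The neurofilament genes nefh and nefl were higher in the ganglion. The level of nefh was 1777, 2488 and 3544 CPM in the ganglion and 94.1, 128 and 160.1 CPM in the cerebellum, and that of nefl was 162, 262 and 489 CPM in the ganglion and 1.36, 3.18 and 7.14 CPM in the cerebellum. The growth cone protein gene gap43 had 518, 694 and 1033 CPM in the ganglion and 68.8, 88.8 and 103 CPM in the cerebellum (3.05 ± 0.227), and neuronal beta-tubulin tubb3 had 171, 407 and 539 CPM in the ganglion and 19.8, 27.2 and 34 CPM in the cerebellum. Tubulins and microtubule-associated proteins as a list gave 7 higher and 6 lower of 27 tested (25.9% and 22.2%). Their median of 0.01 was negative with library totals (-0.30), DESeq2 size factors (-0.02) and log2(TPM + 1) (-0.65), and ran from -0.05 to 0.12 when 1 replicate was omitted. Motor proteins gave 10 higher and 11 lower of 44 tested (22.7% and 25%). The tubulin and motor shares lay near the 21.3% higher and 21.6% lower of all tested symbol genes. The motor median of 0.31 turned to -0.23 on log2(TPM + 1), and without replicates 2 and 5 the count of higher motor genes was 6. The dynein light intermediate chain dync1li2 was among those higher, at 191, 228 and 291 CPM in the ganglion and 45.2, 50.8 and 60.3 CPM in the cerebellum, and kif26a among those lower, at 1.10, 3.34 and 5.05 CPM in the ganglion and 27.6, 38.2 and 43.5 CPM in the cerebellum.

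**Figure D2:**
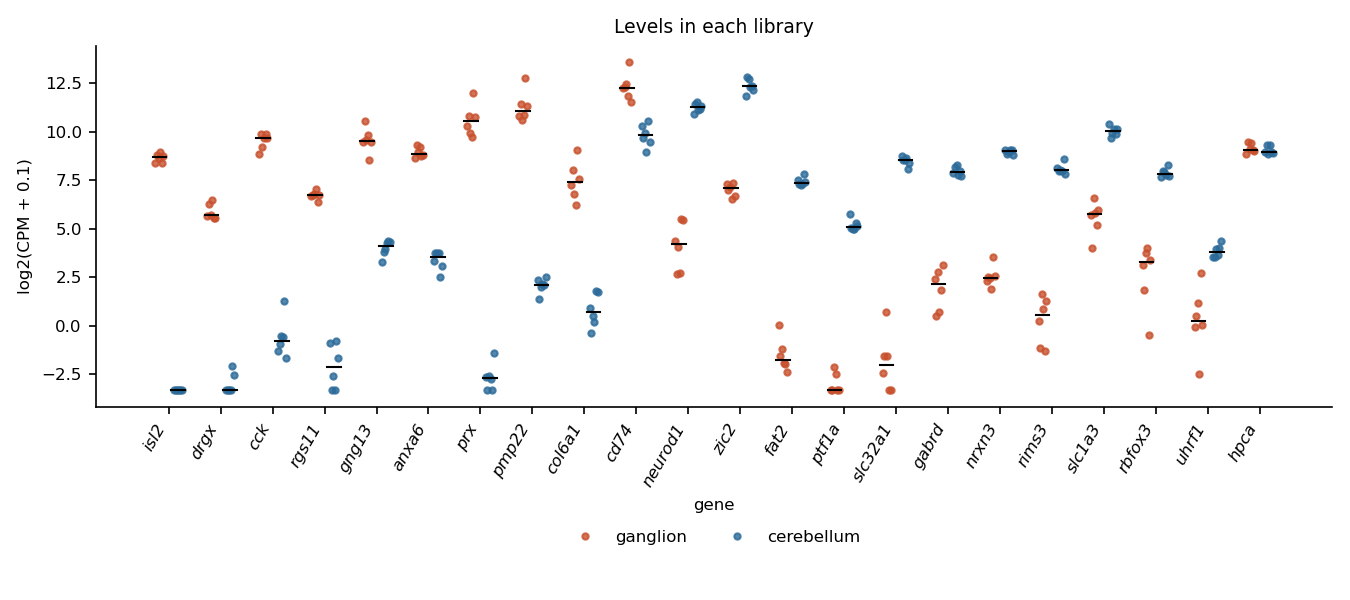
Levels of 22 genes in each library, on a log2(CPM + 0.1) axis, with ganglion libraries in red to the left of cerebellum libraries in blue and a black bar at the median of 6 libraries. For isl2, no cerebellum library had a count; for hpca, a gene whose level was similar in both, the tissues overlap.

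Schwann cell genes were higher in the ganglion and astroglial genes lower. Of 11 tested Schwann cell genes, 9 were higher and none was lower (median 3.28). The myelin genes prx and pmp22 were higher in the ganglion. The level of prx was 858, 1519 and 4041 CPM in the ganglion and 0, 0.0568 and 0.282 CPM in the cerebellum, and that of pmp22 was 1580, 2188 and 6935 CPM in the ganglion and 2.54, 4.23 and 5.72 CPM in the cerebellum, with the highest values in ganglion replicate 5. Astroglial genes went the other way, with 6 of 9 lower and none higher (median -2.57). The glutamate transporter slc1a3, which clears transmitter from synapses, had 16, 53.9 and 96 CPM in the ganglion and 818, 1051 and 1340 CPM in the cerebellum (-4.49 ± 0.301). The GABA transporter slc6a11 had 7.10, 12 and 22.8 CPM in the ganglion and 132, 174 and 223 CPM in the cerebellum. The lipid-binding radial glia gene fabp7, in contrast, was abundant in both, at 728, 832 and 1639 CPM in the ganglion and 1073, 1284 and 1746 CPM in the cerebellum, and was not called (-0.56 ± 0.238, edgeR adjusted p = 0.0625).

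Oligodendrocyte and central myelin genes were split, 4 higher and 5 lower of 11, and 2 higher without replicates 2 and 5. The myelin-associated gene bcas1 had 304, 367 and 453 CPM in the ganglion and 18.2, 32 and 45.4 CPM in the cerebellum (3.52 ± 0.249). The myelin lipid enzyme ugt8 had 8.88, 17.2 and 25.2 CPM in the ganglion and 4.76, 6.13 and 7.91 CPM in the cerebellum. The lineage factors olig1 and olig2 were lower in the ganglion, olig1 at 0.237, 2.96 and 5.48 CPM there and 15.2, 19 and 24.1 CPM in the cerebellum, and olig2 at 8.35, 16.9 and 23.4 CPM in the ganglion and 32.1, 48.6 and 72.1 CPM in the cerebellum. Several myelin genes of the list, such as ugt8, serve Schwann cells as well.

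Matrix genes and integrins were more often higher than lower in the ganglion. Collagens gave 11 higher and 2 lower of 17 tested (median 4.38), laminins and other basement membrane genes 7 and 1 of 10 (median 1.86), integrins 11 and 1 of 18 (median 2.19), and proteoglycans and other matrix proteins 24 and 5 of 43 (median 1.43). The lower count of the laminin list was 0 without replicate 1 and 2 without replicate 3. The collagen VI genes col6a1 and col6a2 were higher in the ganglion. The level of col6a1 was 75.7, 169.7 and 527 CPM in the ganglion and 0.678, 1.55 and 3.40 CPM in the cerebellum, and that of col6a2 was 117, 241 and 305 CPM in the ganglion and 1.81, 2.48 and 3.26 CPM in the cerebellum. The laminin-binding integrin itga6 had 146, 177 and 349 CPM in the ganglion and 1.91, 3.92 and 6.68 CPM in the cerebellum (5.73 ± 0.277). The small proteoglycan prelp had 50.2, 106 and 291 CPM in the ganglion and 0.170, 0.434 and 1.17 CPM in the cerebellum.

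All 5 tested annexins, calcium-dependent membrane-binding proteins, were higher in the ganglion (median 3.82), led by anxa6 with 404, 465 and 630.1 CPM in the ganglion and 5.61, 11.7 and 13.5 CPM in the cerebellum (5.58 ± 0.208). Matrix proteases differed by member: mmp2, a gelatinase of connective tissue, had 316, 370.3 and 652 CPM in the ganglion and 39.2, 51.8 and 69 CPM in the cerebellum. The neuronal membrane-bound mmp24 had 11.2, 25.5 and 35.4 CPM in the ganglion and 189.5, 208 and 230.4 CPM in the cerebellum. The list counted 9 higher and 4 lower of 23. Gap and tight junction genes gave 6 higher and 2 lower of 14, with a median of 0.74 that turned to -0.11 on log2(TPM + 1). The neuronal connexin gjd2, which forms electrical synapses, had 86.8, 135 and 224 CPM in the ganglion and 12, 15.5 and 18 CPM in the cerebellum (3.19 ± 0.218), and cldn5, a claudin of the blood-brain barrier, had 24.8, 42.5 and 69 CPM in the ganglion and 136, 147 and 169 CPM in the cerebellum (-1.92 ± 0.210).

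Immune genes were higher in the ganglion: 35 of 59 tested complement, cytokine and innate immune genes were higher and 8 lower (median 1.8), and the lower count was 5 without the replicate pairing. The complement component c6 had 22, 56 and 71.7 CPM in the ganglion and 1.29, 1.87 and 3.06 CPM in the cerebellum. The interleukin 4 receptor il4r had 12.4, 39.9 and 53.8 CPM in the ganglion and 1.11, 1.51 and 3.04 CPM in the cerebellum. The chemokine cxcl14 went against the list, with 13.4, 16.1 and 22.2 CPM in the ganglion and 313, 368 and 440.5 CPM in the cerebellum (-4.45 ± 0.183). Markers of leukocytes and microglia moved with these genes, 8 higher and 1 lower of 10, and summed to 4002 to 9304 TPM in ganglion libraries, against 929 to 2843 TPM in cerebellum libraries. The member that was lower lost its call without replicate 2 or replicate 4. The antigen presentation gene cd74 made up most of that sum. In CPM, which is not corrected for length and cannot be set against a sum of TPM, cd74 was higher in the ganglion. Its level was 2914, 4966 and 12400 CPM in the ganglion and 504, 907 and 1487 CPM in the cerebellum. The part of leukocyte number in the immune genes was not tested.

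Markers of other cells that a dissected ganglion could carry were checked in the same way. Endothelial and pericyte markers gave 8 higher and 1 lower of 13 and summed to 256 to 696 TPM in ganglion libraries, against 287 to 346 TPM in cerebellum libraries. The lymphatic and venous receptor flt4 was at 10.2, 23.1 and 31.6 CPM in the ganglion and 0.130, 1.26 and 1.85 CPM in the cerebellum. The only red blood cell marker named in the table, rhag, a membrane protein of red cells, had 33.1, 176 and 466 CPM in the ganglion and 4.58, 12.4 and 17.7 CPM in the cerebellum (3.98 ± 0.547). Epithelial, cartilage and bone markers gave 4 higher and 2 lower of 9, a count of higher genes that fell to 2 without replicate 3, 4 or 6, and they summed to 89.3 to 432 TPM in ganglion libraries, against 183 to 240.2 TPM in cerebellum libraries.

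Skeletal muscle markers gave 5 higher and 1 lower of 8 and summed to 769 to 6127 TPM in ganglion libraries, against 1408 to 2030 TPM in cerebellum libraries. Most of the cerebellum sum came from mb, the myoglobin gene, which was picked after its values were seen and was not called, at 1324 ± 710.0 TPM in the ganglion and 1668 ± 203 TPM in the cerebellum (SD, n = 6 each). For the muscle actin acta1, 1 library set the top of the ganglion range. Ganglion replicate 1 held 3265 CPM, the other ganglion libraries 3.65 to 132.8 CPM, and the cerebellum 0, 0.301 and 0.847 CPM. Every ganglion library thus lay above every cerebellum library. The log2 fold change of acta1 was 8.55 ± 0.876, and 7.20 without replicate 1. The troponin gene tnnt1 repeated this, with 147.7 CPM in ganglion replicate 1 and 7.90 to 14.1 CPM in the other ganglion libraries, against 0.185, 0.959 and 1.48 CPM in the cerebellum. The part of muscle, blood and vessel RNA in the other differences was not tested. Motor neuron and cholinergic genes gave 9 higher and 0 lower of 10. Among the members higher were nicotinic receptor subunits such as chrnb3, with 16.8, 58.3 and 82.1 CPM in the ganglion and 0.781, 3.25 and 4.85 CPM in the cerebellum. The motor neuron factor mnx1 had no count in either tissue, and chat, the acetylcholine-making enzyme, had none in any ganglion library, which allows up to 0.0464 CPM there.

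**Figure D3:**
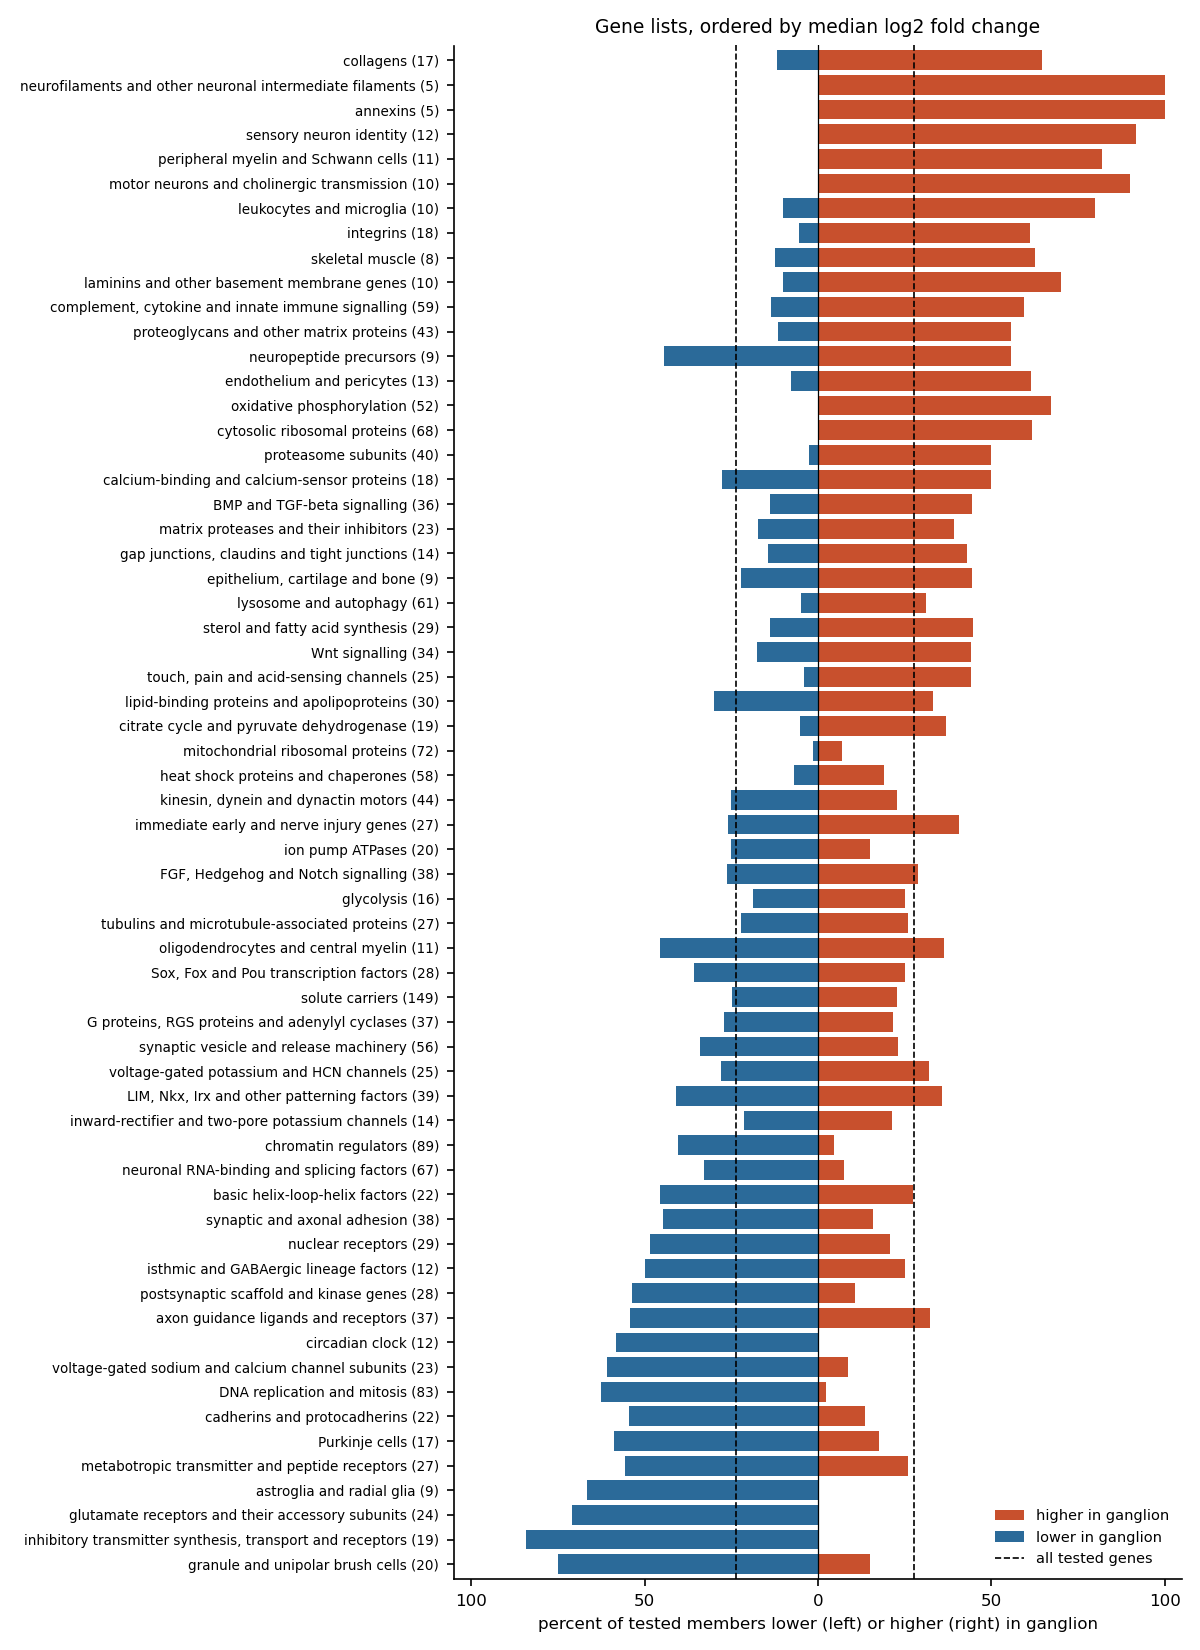
For each of 62 lists with at least 5 tested members (number in brackets), the bar to the right is the percentage of tested members called higher in the ganglion and the bar to the left the percentage called lower. The dashed lines mark the same percentages over all tested genes, 27.6% and 23.7%. Lists hold symbol genes only, and of all tested symbol genes 21.3% were higher and 21.6% lower. Lists run from the highest median log2 fold change at the top to the lowest at the bottom.

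Granule and unipolar brush cell genes gave 15 lower and 3 higher of 20 tested (median -4.36). The zinc finger gene zic2, needed for cerebellar growth in mice, was among the most abundant genes of the cerebellum, with 92, 135 and 164 CPM in the ganglion and 3733, 5185 and 7203 CPM in the cerebellum (-5.37 ± 0.250). The neuronal differentiation factor neurod1 had 6.27, 18.6 and 45.4 CPM in the ganglion and 1952, 2441 and 2911 CPM in the cerebellum (-7.09 ± 0.527). Its relative neurod6 had 0.355, 0.824 and 1.69 CPM in the ganglion and 211, 234 and 261 CPM in the cerebellum.

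Lineage factors of inhibitory neurons were more often lower than higher, but not all of them were lower. Members named in this paragraph were picked as the largest called changes, and none of the members called higher is among them. In the list of isthmic and GABAergic lineage factors 25% were higher and 50% lower, beside 21.3% and 21.6% of all tested symbol genes. The factor ptf1a, which commits cerebellar precursors to an inhibitory fate in mice, had 3 counts over all ganglion libraries and 31.2, 33.7 and 53.3 CPM in the cerebellum; the ratio of summed, scaled counts, cerebellum over ganglion, was 802 (95% exact binomial interval 274 to 3890). The factors lhx1 and skor1, both members of the Purkinje cell list, were lower in the ganglion. The level of lhx1 was 0, 0.119 and 2.45 CPM in the ganglion and 230.4, 283 and 339.9 CPM in the cerebellum, and that of skor1 was 0.157, 0.840 and 3.72 CPM in the ganglion and 342, 388 and 495 CPM in the cerebellum. The Purkinje list as a whole gave 10 lower and 3 higher of 17, and 5 higher without replicates 2 and 5. The list of GABAergic lineage factors and of those of the isthmus, the organising region between midbrain and hindbrain, gave 6 lower and 3 higher of 12; gbx2, which sets the position of the midbrain-hindbrain boundary, had 0, 0.284 and 0.863 CPM in the ganglion and 123, 131 and 159 CPM in the cerebellum (-8.60 ± 0.454). The factors en2 and pax8, of the same region, were lower in the ganglion. The level of en2 was 0.118, 1.13 and 1.77 CPM in the ganglion and 1095, 1351 and 1561 CPM in the cerebellum, and that of pax8 was 0, 0.0332 and 0.162 CPM in the ganglion and 101, 116 and 125 CPM in the cerebellum.

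Genes of central synapses were lower in the ganglion. Inhibitory transmitter genes gave 16 lower of 19 and none higher, although 1 was called higher without replicate 2, alone or with replicate 5, and glutamate receptors and their accessory subunits 17 lower of 24 and none higher (medians -3.86 and -2.69). The GABA receptor subunit gabrd, which sits outside synapses, had 1.30, 4.39 and 8.69 CPM in the ganglion, against 213, 246 and 314 CPM in the cerebellum. The NMDA receptor subunit grin2a stood at 0.157, 0.287 and 0.649 CPM in the ganglion and 32.8, 48 and 53.4 CPM in the cerebellum. Members of these lists with values shown here did not overlap between the tissues. Most were picked as the largest called changes, so this follows from the choice and does not describe the rest of either list. Of the inhibitory transmitter genes 3 were not called, and of the glutamate receptor list 7.

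Other synaptic lists had medians nearer to 0. Postsynaptic scaffold and kinase genes gave 15 lower and 3 higher of 28 (median -1.13), synaptic vesicle and release genes 19 and 13 of 56 (median -0.32), and synaptic and axonal adhesion genes 17 and 6 of 38 (median -0.86). The release-site gene rims3 was among the strongest, at 0.314, 1.40 and 2.99 CPM in the ganglion and 226, 257 and 392 CPM in the cerebellum (-7.60 ± 0.491). The presynaptic adhesion gene nrxn3 had 3.57, 5.47 and 11.6 CPM in the ganglion and 442, 512 and 539.7 CPM in the cerebellum (-6.44 ± 0.263). Members higher in the ganglion included the synaptotagmin syt9, at 23.6, 36.8 and 55.5 CPM in the ganglion and 1.78, 4.07 and 5.72 CPM in the cerebellum, and cntnap1, which anchors myelin beside the node of Ranvier, at 10.5, 19.3 and 29.8 CPM in the ganglion and 0.208, 0.708 and 2.19 CPM in the cerebellum. Cadherins and protocadherins gave 12 lower and 3 higher of 22 (1 higher without replicates 2 and 5), with the giant cadherin fat1 at 2.98, 7.48 and 14.8 CPM in the ganglion and 55.5, 76.5 and 105 CPM in the cerebellum.

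Receptors for transmitters and peptides that act through G proteins were mostly lower, 15 of 27 tested against 7 higher, with a median of -1.89 that became 0.23 when genes with low counts were kept. Adrenergic receptors were divided by subtype. The beta receptor adrb1 and the alpha receptor adra1b were lower in the ganglion. The level of adrb1 was 0, 0.118 and 0.465 CPM in the ganglion and 17.3, 22 and 35.6 CPM in the cerebellum, and that of adra1b was 0, 0.702 and 1.73 CPM in the ganglion and 28, 40.8 and 46.6 CPM in the cerebellum. The alpha receptor adra1d had 22.8, 32.7 and 43.7 CPM in the ganglion and 1.06, 2.19 and 5.74 CPM in the cerebellum.

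Of axon guidance genes 12 were higher and 20 lower of 37 tested (32.4% and 54.1%), beside 21.3% and 21.6% of all tested symbol genes. The repellent slit1 and the receptor robo3, which governs crossing of the midline, were lower in the ganglion. The level of slit1 was 5.03, 7.48 and 12.5 CPM in the ganglion and 71.3, 83.2 and 118 CPM in the cerebellum, and that of robo3 was 6.67, 8.19 and 9.91 CPM in the ganglion and 56.9, 74.9 and 84.9 CPM in the cerebellum. The semaphorin sema3c and the semaphorin receptor plxnd1 were higher in the ganglion. The level of sema3c was 52, 55 and 64.2 CPM in the ganglion and 4.85, 6.40 and 8.78 CPM in the cerebellum, and that of plxnd1 was 30.2, 36.6 and 48.4 CPM in the ganglion and 2.53, 4.66 and 7.76 CPM in the cerebellum.

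Secreted proteins linked to Wnt signalling were among the signalling genes higher in the ganglion. The Dickkopf family gene dkk3 had 1160, 2177 and 4817 CPM in the ganglion and 65.2, 76.3 and 113 CPM in the cerebellum (4.80 ± 0.329, edgeR adjusted p = 2e-06). The Wnt-binding protein gene frzb had 108, 126 and 249.5 CPM in the ganglion and 5.86, 7.09 and 11.4 CPM in the cerebellum. The ligand wnt11 was higher in the ganglion, at 26.4, 43.2 and 51.1 CPM there and 0.636, 1.11 and 2.20 CPM in the cerebellum, and the receptor fzd10 lower, at 3.20, 5.60 and 15.8 CPM in the ganglion and 139.9, 164 and 175 CPM in the cerebellum. The Wnt list gave 15 higher and 6 lower of 34, and the BMP and TGF-beta list 16 and 5 of 36. In that second list the secreted matrix protein tgfbi had 135, 187 and 384 CPM in the ganglion and 0.260, 0.818 and 6.31 CPM in the cerebellum, and fstl3, which binds activin, 20.8, 24.8 and 62.5 CPM in the ganglion and 0, 0 and 0.325 CPM in the cerebellum. FGF, Hedgehog and Notch genes gave 11 higher and 10 lower of 38 (28.9% and 26.3%), beside 21.3% and 21.6% of all tested symbol genes. Their median of 0.14 turned to -0.16 with library totals and to -0.37 on log2(TPM + 1).

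Other transcription factors moved in both directions. Patterning factors of the LIM, Nkx, Irx and related families gave 14 higher and 16 lower of 39 (35.9% and 41%). Basic helix-loop-helix factors gave 6 and 10 of 22 (27.3% and 45.5%), and nuclear receptors 6 and 14 of 29 (20.7% and 48.3%). Sox, Fox and Pou factors gave 7 and 10 of 28 (25% and 35.7%). Of all tested symbol genes 21.3% were higher and 21.6% lower. The mesenchymal factors six2 and tbx15 were higher in the ganglion. The level of six2 was 23.4, 28.9 and 51.4 CPM in the ganglion and 0.678, 0.975 and 1.48 CPM in the cerebellum, and that of tbx15 was 7.71, 14.8 and 76.5 CPM in the ganglion and 0.339, 0.372 and 1.05 CPM in the cerebellum. Among nuclear receptors, nr2f2 and nr2f1 were higher in the ganglion. The level of nr2f2 was 11.3, 19.1 and 23.8 CPM in the ganglion and 0.0651, 0.431 and 0.866 CPM in the cerebellum, and that of nr2f1 was 44.8, 72 and 104 CPM in the ganglion and 5.33, 6.32 and 7.97 CPM in the cerebellum. The gene rorb had 3.08, 5.02 and 10.2 CPM in the ganglion and 125, 163 and 203 CPM in the cerebellum. All 22 Hox genes in the table fell under the filter on low counts; without replicates 2 and 5, 1 of them passed it and was higher.

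Clock genes were lower in the ganglion in 7 of 12 cases and higher in none (median -1.25). The repressor bhlhe41 had 23.4, 34 and 60.4 CPM in the ganglion and 407, 445 and 485 CPM in the cerebellum (-3.66 ± 0.234). The core components per1 and cry2 were lower in the ganglion. The level of per1 was 14.2, 20.3 and 30.5 CPM in the ganglion and 70.2, 89.7 and 108 CPM in the cerebellum, and that of cry2 was 24.1, 31.9 and 59.7 CPM in the ganglion and 74.5, 96.7 and 122 CPM in the cerebellum. The time of day of sampling is not given in the sources used here, and its part was not tested.

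Genes of cell division were lower in the ganglion, 52 of 83 tested, with 2 higher (median -1.43). The DNA methylation maintenance gene uhrf1 had 0.0811, 1.12 and 6.44 CPM in the ganglion and 11.5, 14 and 20.9 CPM in the cerebellum (-3.44 ± 0.559). The kinetochore gene cenpo had 0.845, 1.80 and 3.14 CPM in the ganglion and 12.5, 16.9 and 23.5 CPM in the cerebellum. Ganglion replicate 5 was the exception within its tissue: it held 60.6 CPM of the proliferation marker mki67, where the other ganglion libraries held 1.62 to 5.68 CPM and the cerebellum 10.3, 34.2 and 78.2 CPM, so the tissues overlapped. The log2 fold change of mki67 was -2.90 ± 0.735, and -1.69 and not called without the replicate pairing. The chromatin protein gene hmgb2 was also highest in ganglion replicate 5, at 815.5 CPM, where the other ganglion libraries held 159.6 to 292.7 CPM. Its cerebellum levels were 174, 510.2 and 923 CPM. It was called lower only when replicate 2 or replicate 5 was left out, or with library totals or TPM. Cerebellum replicate 2 was the lowest of its tissue for both genes, at 10.3 CPM of mki67 and 174 CPM of hmgb2. The other cerebellum libraries held 30.6 to 78.2 CPM of mki67 and 439.7 to 922.6 CPM of hmgb2. For hmgb2, cerebellum replicate 2 thus lay within the 159.6 to 292.7 CPM of those ganglion libraries. Without replicate 2, or without replicate 5, 60 genes of the list were lower.

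Chromatin regulators and RNA-binding proteins were more often lower than higher, 36 against 4 of 89 and 22 against 5 of 67 tested; without replicates 2 and 5 the RNA-binding list had 8 higher. The splicing factor rbfox3, whose protein is the neuronal nuclear marker NeuN, had 0.628, 9.68 and 16.1 CPM in the ganglion and 204, 230.5 and 313 CPM in the cerebellum (-4.99 ± 0.574). The neuronal microexon regulator srrm4 had 2.11, 7.98 and 11.2 CPM in the ganglion and 145, 161 and 212 CPM in the cerebellum. In the other direction mbnl1, a splicing regulator of muscle and connective tissue, had 498, 536 and 1228 CPM in the ganglion and 67.7, 80.8 and 94.9 CPM in the cerebellum.

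Genes for protein synthesis and respiration were higher in the ganglion on the TMM scale. Cytosolic ribosomal proteins gave 42 of 68 higher and none lower (median 1.05), oxidative phosphorylation 35 of 52 higher and none lower (median 1.18), and proteasome subunits 20 higher and 1 lower of 40 (median 0.98). These counts depend on scaling: with library totals they were 15, 22 and 7 higher, and on log2(TPM + 1) 1, 10 and 3 higher, with medians of 0.39, 0.51 and 0.33. Without replicates 2 and 5, 20 oxidative phosphorylation genes and 10 proteasome subunits were higher, and the proteasome subunit that was lower lost its call without replicate 2, 4 or 5. The ATP synthase gene atp5mc3 had 314, 488 and 1204 CPM in the ganglion and 84.9, 106 and 151 CPM in the cerebellum (2.32 ± 0.315). The gene rpl17 had 266, 402 and 592 CPM in the ganglion and 107, 122 and 139 CPM in the cerebellum. Mitochondrial ribosomal proteins gave 5 higher and 1 lower of 72 (3 higher without replicate 2 or 5, 2 higher without both, and none lower without replicate 5, alone or with replicate 2), with a median of 0.42 that turned to -0.24 on log2(TPM + 1).

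Enzymes of metabolism and proteasome activators included large single changes. The mitochondrial isocitrate dehydrogenase idh2 had 77.4, 113 and 164 CPM in the ganglion and 3.46, 6.64 and 9.05 CPM in the cerebellum (4.14 ± 0.211), while its list, the citrate cycle and pyruvate dehydrogenase, gave 7 higher and 1 lower of 19 with a median of 0.44 that turned to -0.23 on log2(TPM + 1). The proteasome activator genes psme1 and psme2, induced by interferon in mammals, were higher in the ganglion. The level of psme1 was 211, 233 and 420.5 CPM in the ganglion and 37.4, 53.9 and 66.7 CPM in the cerebellum, and that of psme2 was 138, 159 and 485 CPM in the ganglion and 13.1, 16.9 and 48.1 CPM in the cerebellum. The fatty acid elongase elovl1, which makes the very long chains found in myelin, had 186, 220.4 and 351 CPM in the ganglion and 10.3, 13.3 and 17.3 CPM in the cerebellum (4.14 ± 0.177). Sterol and fatty acid synthesis gave 13 higher and 4 lower of 29 (2 lower without replicate 4, 5 or 6, and 1 lower without replicates 2 and 5), with a median of 0.61 that turned to -0.04 on log2(TPM + 1).

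Gene length moved with the direction of change. Tested genes were divided into 5 equal groups by length. In the shortest group 36.2% were higher and 14.0% lower, with a median log2 fold change of 0.50, and in the longest group 22.3% were higher and 30.7% lower, the median there being -0.33. Genes of the shortest group took 30.2% to 35.8% of counts in ganglion libraries, against 20.5% to 22.0% in cerebellum libraries. Ribosomal proteins and many respiratory chain subunits are small proteins, and the part of length in their difference was not tested. The 100 most abundant genes of a library took 25.4% ± 6.58 of the total in ganglion libraries and 16.2% ± 0.479 in cerebellum libraries (SD, n = 6 each), higher in 6 of 6 pairs. The mean difference was 9.22 percentage points, and the exact two-sided sign-flip permutation test gave p = 0.03125, the smallest that 6 pairs allow. With any 1 pair left out the difference was 6.62 to 10.3 percentage points, lowest without replicate 5, and the same exact permutation test gave p = 0.0625, the smallest that 5 pairs allow.

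**Figure D4:**
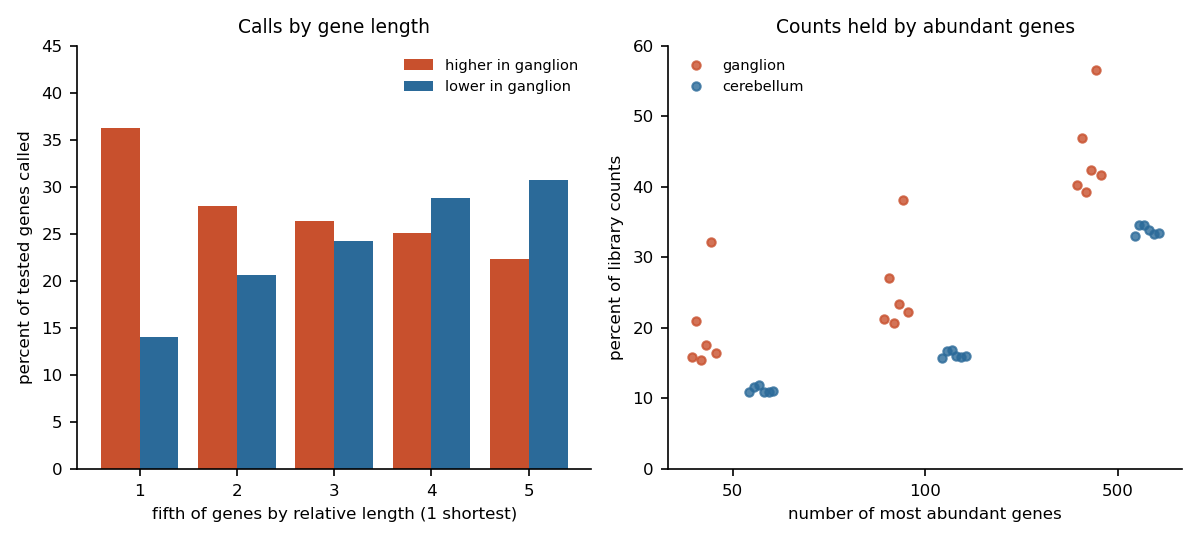
Left, the percentage of tested genes called higher (red) or lower (blue) in the ganglion, in 5 equal groups of genes by relative length, from counts divided by TPM. Right, the percentage of each library's counts held by its 50, 100 and 500 most abundant genes, with ganglion libraries in red and cerebellum libraries in blue; ganglion replicate 5 is the highest point of each set.

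Lipid carriers were divided between the tissues. The cholesteryl ester transfer gene cetp had 49, 77.3 and 196 CPM in the ganglion and 0, 0.175 and 0.424 CPM in the cerebellum (8.93 ± 0.404). The retinoic acid carrier crabp1 had 9.29, 14.1 and 31.1 CPM in the ganglion and 0, 0.0353 and 0.259 CPM in the cerebellum. The apolipoprotein gene apoa2 had 67.1, 69.3 and 89.4 CPM in the ganglion and 981, 1158 and 1410 CPM in the cerebellum (-4.03 ± 0.154). For the abundant apolipoprotein gene apoc1, 1 library set the ganglion range: replicate 5 held 24900 CPM and the other ganglion libraries 1568 to 7947 CPM. The cerebellum had 1896, 2434 and 3375 CPM, and apoc1 was not called in the main test with the replicate pairing. The list gave 10 higher and 9 lower of 30, with a median of 0.45 that turned to -0.16 on log2(TPM + 1). Solute carriers, the largest list, gave 34 higher and 37 lower of 149 (22.8% and 24.8%), near the 21.3% and 21.6% of all tested symbol genes.

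By TPM, abundant ganglion genes with a symbol included the actin-sequestering tmsb4x, at 6109 ± 1914 TPM in the ganglion and 3241 ± 419.9 TPM in the cerebellum, the brain creatine kinase ckb, at 5334 ± 1666 and 839 ± 154 TPM in ganglion and cerebellum, and the secreted chaperone clusterin (clu), at 3945 ± 841 and 1145 ± 118 TPM (SD, n = 6 each). On the count scale ckb was the most changed of them, with 3413, 4648 and 9019 CPM in the ganglion and 413, 479 and 699 CPM in the cerebellum (3.29 ± 0.262). The microtubule regulator stmn1 was abundant in both and lower in the ganglion, at 437, 803 and 1119 CPM there and 1618, 1976 and 2838 CPM in the cerebellum.

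Immediate early and nerve injury genes gave 11 higher and 7 lower of 27. Their median of 0.24 turned to -0.06 with library totals, -0.55 on log2(TPM + 1) and -0.07 without replicates 2 and 5. The gene gap43, given above with the axon genes, is a member of this list and was among those higher. The stress-induced gene gadd45g had 72.3, 110.4 and 384 CPM in the ganglion and 18.1, 19.2 and 21.5 CPM in the cerebellum. The activity-induced factor egr1 had 15.4, 30.6 and 54.8 CPM in the ganglion and 148, 299.9 and 551 CPM in the cerebellum (-3.25 ± 0.202). The small heat shock protein gene hspb1 had 8.88, 20.6 and 62.8 CPM in the ganglion and 0.424, 1.16 and 1.89 CPM in the cerebellum. Its chaperone list gave 11 higher and 4 lower of 58 (19% and 6.9%), beside 21.3% and 21.6% of all tested symbol genes. The median of that list, 0.39, turned to -0.24 on log2(TPM + 1). Lysosome and autophagy genes gave 19 higher and 3 lower of 61 (31.1% and 4.92%), with a median of 0.63 that turned to -0.02 on that scale. Glycolysis genes gave 4 higher and 3 lower of 16 (25% and 18.8%), near the shares of all tested symbol genes, and 1 lower without replicates 2 and 5. Their median of 0.02 turned to -0.26 with library totals, -0.03 with low counts kept and -0.49 on log2(TPM + 1).

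Some genes were found in 1 tissue alone at this depth. Of symbol genes with a mean of at least 1 TPM, 10 in the ganglion had no count in the cerebellum and 8 in the cerebellum had none in the ganglion. Beside isl1 and isl2, fndc7, a fibronectin type III domain gene, had 51.8, 61.4 and 82.2 CPM in the ganglion and was at least 1937-fold higher, taking 3 counts over all cerebellum libraries as the limit. The mesenchymal factor tcf21 had 1.26, 2.96 and 16.6 CPM in the ganglion and was at least 140.2-fold higher. In the other direction the forebrain and hindbrain patterning factor gsx2 had no count in the ganglion and 1.19, 1.86 and 3.39 CPM in the cerebellum, at least 43.7-fold lower.

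At the other end, 294 symbol genes had a 95% interval of the log2 fold change within -0.5 to 0.5. The most abundant of them by TPM were arl6ip1, hpca, cops6, tmem50a, ppp1r7, nipsnap2, pold4 and eif3g. The neuronal calcium sensor hpca had 457, 543 and 718 CPM in the ganglion and 459, 498 and 630.0 CPM in the cerebellum (0.10 ± 0.136). The translation initiation factor eif3g had 117, 139 and 160.0 CPM in the ganglion and 119, 134 and 159 CPM in the cerebellum (0.01 ± 0.162). This equality holds on the TMM scale; on log2(TPM + 1) all 8 lay outside that range, lower in the ganglion.

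Variation among ganglion libraries was wider than among cerebellum libraries for several called genes. The cannabinoid receptor cnr1 had 1.18 and 1.73 CPM in ganglion replicates 2 and 5 and 38.9 to 58.5 CPM in the other ganglion libraries, against 165, 224 and 374 CPM in the cerebellum. The kinase subunit prkar1b and the nuclear receptor partner ncoa2 were likewise lowest in ganglion replicates 2 and 5, at 5.45 and 0.314 CPM and at 2.96 and 1.10 CPM. Their log2 fold changes were -3.31 ± 0.912, -1.71 ± 0.670 and -2.44 ± 0.633, and -2.03, -0.79 and -1.50 without replicates 2 and 5, where prkar1b was no longer called. The call of prkar1b was also lost without replicate 1, 2, 4 or 6. The keratin krt18 had 6.44, 141 and 279 CPM in the ganglion and 20.8, 27.8 and 28.9 CPM in the cerebellum, so the tissues overlapped, and its call (edgeR adjusted p = 0.0298) was lost without replicate 1, 3, 4 or 6, and with library totals or TPM.

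**Figure D5:**
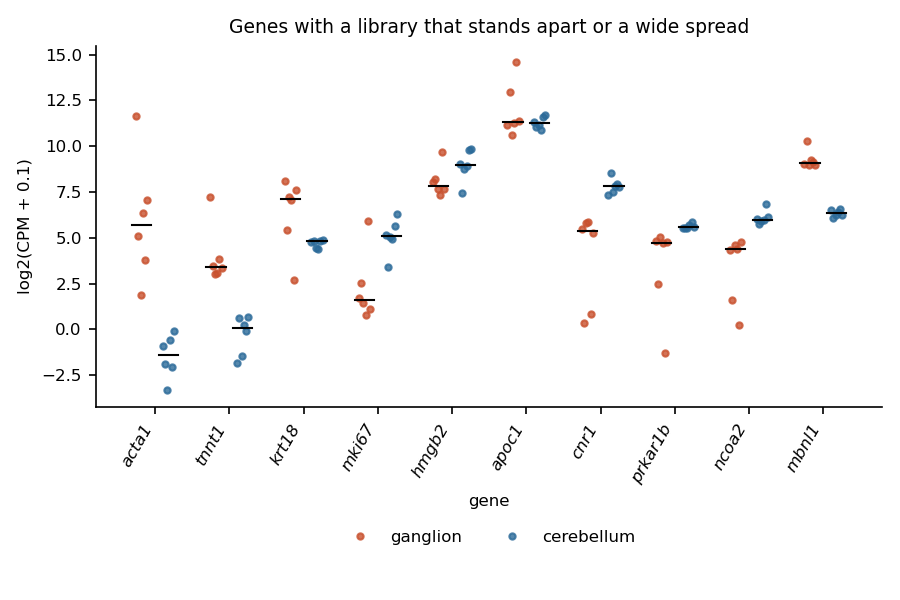
Levels of 10 genes in each library on a log2(CPM + 0.1) axis, ganglion in red to the left and cerebellum in blue, with a black bar at the median. One ganglion library stands far above the others for acta1 and tnnt1 (replicate 1) and for mki67, hmgb2 and apoc1 (replicate 5), and replicates 2 and 5 are the lowest ganglion points for cnr1, prkar1b and ncoa2.

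Symbols that end in a and b and are otherwise alike formed 207 pairs, mostly family members or subunits and not copies of 1 gene, and both were tested in 171. Both were higher in 9 pairs, both lower in 13, and 7 pairs had opposite calls. In 71 pairs only 1 member was called, and in 71 neither was. Of all tested symbol genes 21.3% were higher and 21.6% lower, so pairs of each kind also arise without any link between members. The pair counts were not tested against that. Without replicate 5, 4 opposite pairs were left. Of the semaphorins, sema5a had 52.2, 59.2 and 80.9 CPM in the ganglion and 7.19, 8.97 and 11 CPM in the cerebellum, and sema5b 0.785, 8.18 and 14.9 CPM in the ganglion and 19.7, 21.6 and 24.5 CPM in the cerebellum. The pair sema3a and sema3b was opposite as well: sema3a had 3.31, 8.29 and 12.9 CPM in the ganglion and 19.1, 23.2 and 25.4 CPM in the cerebellum, and sema3b 99, 129.7 and 147 CPM in the ganglion and 17, 22 and 23.3 CPM in the cerebellum. The remaining opposite pairs were fam84a and fam84b, sowaha and sowahb, sh3pxd2a and sh3pxd2b, samd4a and samd4b, and ppp1r14a and ppp1r14b. The libraries of the tissues overlapped for fam84b, sowahb and ppp1r14b. Of these genes, fam84b lost its call without replicate 2, sh3pxd2a and samd4b without replicate 5, ppp1r14a without replicate 5 or 6, and ppp1r14b without replicate 3.

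Rows that carry only a locus identifier were called more often than rows with a symbol. Of 10282 tested locus rows 33.2% were higher and 25.6% lower, and of 9171 tested symbol rows 21.3% were higher and 21.6% lower. The median absolute log2 fold change was 1.33 for locus rows and 0.86 for symbol rows, and of the genes changed more than 256-fold, 80 higher and 37 lower had a locus identifier, against 23 and 12 with a symbol. Locus rows were tested less often, 58.2% against 88.4% of all rows of their kind. They took 51.6% to 56.9% of the counts of ganglion libraries and 48.7% to 49.6% of those of cerebellum libraries. The highest by the naming rule was LOC111847618, with 359, 532 and 1802 CPM in the ganglion and 2 counts over the cerebellum libraries, and LOC111841237 had 69.2, 205 and 512 CPM in the ganglion and no count in the cerebellum. The lowest were LOC111856484, with 0.189, 0.688 and 1.78 CPM in the ganglion and 1624, 1945 and 2471 CPM in the cerebellum, and LOC111838817, with 0.118, 0.319 and 0.755 CPM in the ganglion and 460.4, 484 and 720.5 CPM in the cerebellum. No table that pairs these identifiers with names was used here.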

How the data were processed

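RNA was measured in 6 trigeminal ganglion and 6 cerebellum libraries, made from total RNA with a low-input kit that keeps no strand information, so overlapping and antisense genes cannot be told apart. Per the submitters' processing notes, CASAVA 1.8.2, Trimmomatic 0.39, STAR 2.7.7a and featureCounts of Subread 2.0.1 were used; the build and annotation were not given in the sources used here. The deposited table holds the authors' raw counts per gene and, per the file headers, the authors' TPM values; no TPM value entered the main test. Spinal cord libraries (6) were not used.

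Counts as deposited were filtered with filterByExpr, scaled by TMM and tested with edgeR 4.0.16 (R 4.3.3) by the quasi-likelihood F test, with replicate number as a block, since the comparison was defined with that number as pairing. A gene was called at a Benjamini-Hochberg adjusted p under 0.05 over all tested genes with a change of at least 2-fold (an absolute log2 value of 1). The standard error is the absolute log2 fold change divided by the square root of F. Levels were set between genes only as TPM. A gene with no count in a tissue was assigned the limit of 3 counts over that tissue, and intervals and floors cover counting error only, since reads carried no molecular identifiers. Alternatives used limma 3.58.1 on log2(TPM + 1) (mean of at least 1 TPM in either tissue), DESeq2 1.42.0, other scalings, no filter, a test against a 2-fold change (glmTreat), and omission of replicates. Plots were drawn with matplotlib 3.10.9 (Python 3.11.15).

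The genes and the 64 lists were chosen with earlier results of these data known. Named genes followed a rule: the largest called changes, up to 4 called members per list and the most abundant uncalled member of lists mostly uncalled, the most abundant genes, the most equal genes by a 95% interval within -0.5 to 0.5, genes with no count in 1 tissue, the most variable called genes, opposite a and b pairs, 2 locus identifiers each way, and markers; longer lists give their first members, and some genes are not reported here. Symbols are as in the table. No pair of libraries agreed within counting noise. In simulated counts over 18706 genes, the test called 22 of 67 genes changed by 1 log2 unit, 63 of 66 changed by 2 and 65 of 65 changed by 3. It also called 5 of 18508 unchanged genes. Both simulated tissues were drawn from cerebellum mean levels, with 200 genes changed. No replicate effect, deviant library or broad shift between tissues was built in. The real comparison differs in these points, so the simulated counts give no error rate for it. The labels name separate fish but do not say that a replicate number is 1 fish. The p-values of the paired tests measure the spread of the tissue difference over pairs formed by that number.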

Additional observations from a re-analysis of the deposited data

Results flagged for a closer look

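For the named genes, the highest or lowest library of a tissue was compared with the nearest of the other 5 (Dixon's gap test, for levels of at least 1 CPM). Of 295 gene and tissue groups 33 held such a library, 22 in the ganglion and 11 in the cerebellum. Chance gives about 1 in 20 where values are normally distributed and groups are not chosen by their values. Some of these genes were named for their wide spread, so the count is a description and no test. Levels were compared as CPM without a log scale. Each flagged library, of either tissue, was the highest of its group, and no low library was flagged. Ganglion replicate 5 was the library in 13 of the 33, among them prx at 4041 CPM, pmp22 at 6935, cd74 at 12400, apoc1 at 24900, hmgb2 at 815.5, psme2 at 485 and psme1 at 420.5 CPM. Its other 6 were prelp at 291.2 CPM, tbx15 at 76.49, fstl3 at 62.51, mki67 at 60.63, nrxn3 at 11.62 and uhrf1 at 6.44 CPM. Ganglion replicate 1 was the highest for acta1 (3265 CPM), frzb (249.5 CPM), tnnt1 (147.7 CPM) and fzd10 (15.79 CPM), and ganglion replicate 2 for fabp7 (1639 CPM) and mbnl1 (1228 CPM). Ganglion replicate 3 was the highest for slc32a1 (1.527 CPM) and gad1 (1.727 CPM), and ganglion replicate 6 for cbln1 (1.322 CPM).

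In the cerebellum replicate 5 stood apart for rims3 (392.4 CPM), fat2 (230.2 CPM), ncoa2 (115 CPM), psme2 (48.1 CPM), tgfbi (6.307 CPM) and cck (2.356 CPM). Replicate 1 stood apart for slit1 (117.6 CPM) and tbx15 (1.051 CPM), replicate 2 for cnr1 (373.9 CPM) and sowaha (10.94 CPM), and replicate 3 for sowahb (2.668 CPM).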

How the results depend on the processing

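Without the replicate block, 5574 genes were higher and 4333 lower. Same-numbered libraries of the tissues deviated together weakly, with correlations of 0.0388 to 0.328 (4 of 6 over 0.1), and 4 of 6 libraries of each tissue correlated best with their own number. Omitting 1 replicate gave 5235 to 5434 higher and 4354 to 4613 lower genes; omitting replicates 2 and 5, chosen after seeing the data, gave 5544 and 4397. On log2(TPM + 1), 3175 genes were higher and 7182 lower, and glmTreat called 3052 lower and 27.6% of symbol rows. Both members of an a and b pair were higher in 4 pairs (library totals), 1 (TPM) and 2 (glmTreat), both lower in 22, 32 and 5, and opposite in 2 (glmTreat), 4 (without replicates 2 and 5) and 4 to 9 (omitting 1 replicate). The difference in the share of the 100 most abundant genes was 6.62 to 10.3 percentage points when 1 pair was left out, each with an exact permutation p of 0.0625, the smallest that 5 pairs allow.

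On log2(TPM + 1) list medians turned to -0.14 (touch and pain channels), -0.23 (motors), -0.65 (tubulins), -0.50 (pumps), -0.11 (junctions), -0.24 (mitochondrial ribosomes), -0.49 (glycolysis), -0.23 (citrate cycle), -0.04 (sterols), -0.02 (lysosome), -0.24 (chaperones), -0.37 (FGF, Hedgehog and Notch), -0.55 (immediate early genes) and -0.16 (lipid-binding). With library totals they turned to -0.30 (tubulins), -0.15 (pumps), -0.26 (glycolysis), -0.16 (FGF, Hedgehog and Notch) and -0.06 (immediate early genes). The tubulin median was -0.02 with DESeq2 and with its size factors. Keeping low counts gave 0.23 (metabotropic receptors), -0.03 (glycolysis) and 0.38 (LIM, Nkx and Irx factors), and no block gave 0.02 (Sox, Fox and Pou factors). Without replicates 2 and 5 the medians were -0.03 (tubulins), 0.13 (Kv and HCN channels), -0.07 (immediate early genes) and 0.04 (solute carriers). Omitting 1 replicate gave -0.05 to 0.12 for tubulins and -0.04 to 0.18 for glycolysis. The uncalled genes tmem150c (-0.24 with library totals, -0.58 on TPM, -0.14 without replicates 2 and 5, -0.07 to 0.16 omitting 1 replicate), kcnj10 (-0.28 on TPM) and apoc1 (-0.18 without replicates 2 and 5) changed sign. The cause was not tested. No called gene had the opposite call under these alternatives, and DESeq2 left all 161 named genes on their side of the threshold. Lists whose genes sit near 1 CPM are limited by depth.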
